A study of Drosophila melanogaster with 4 samples.

Results

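The islands described here are stretches of chromatin marked by H3K9me3, histone H3 trimethylated at lysine 9, along the euchromatic part of 2L, the left arm of chromosome 2 of Drosophila melanogaster. They were mapped by chromatin immunoprecipitation and sequencing (ChIP-seq). An island is a cluster of significant enrichment in the list deposited for the whole series whose midpoint lies more than 100 kb from the telomeric end of the arm sequence and at least 3 Mb from its centromeric end. By this rule 290 of the 3941 clusters of that list were islands, out of 422 on the 2L sequence. The analysed stretch ran from 100001 to 20011544 on FlyBase release 5, which is 19.9 Mb of a 23011544 bp sequence. The choice used positions only, not scores or lengths. Each island was then looked up in the lists of the single ChIP libraries, where any overlap of 1 bp or more counted as found.

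All libraries came from wild-type Oregon-R embryos collected at 14 to 16 h, crosslinked with 1.8% formaldehyde. The labels name 2 H3K9me3 ChIP libraries, made with an Abcam antibody, and 2 input libraries, 1 for each. All of them are whole-embryo chromatin of a mixed cell population, so a partial signal in all cells and a full signal in some cannot be told apart. The ChIP libraries are numbered as replicates, and the labels do not say whether they came from separate collections, so their SD may be technical. The number of reads per library is unknown, and the input libraries enter only through the authors' calls.

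H3K9me3 is the mark on which constitutive heterochromatin is built. It is written by methyltransferases such as Su(var)3-9 and Eggless and bound by the heterochromatin protein HP1a, and in flies it is densest around the centromeres and over repeats. The gene-rich arms between the centromeric and telomeric regions are known to carry it in short, scattered stretches. The genes, transposons and sequences under the islands are not analysed here, since no genome or annotation of release 5 was used.

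The islands were short and thinly spread. They covered 3.44% of the analysed stretch in the series-wide list. Replicate 1 held 181 clusters there, covering 2.33%, and replicate 2 held 164, covering 2.14%, a mean of 2.24% ± 0.133 (SD, n = 2). The density was 14.6 islands per Mb in the series-wide list, 9.09 clusters per Mb in replicate 1 and 8.24 in replicate 2.

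Of the 290 islands, 132 were found in both libraries, which is 45.5% (exact 95% interval 39.7 to 51.4%, counting error only). Over all 3941 clusters of the series-wide list this share was 61.1%. Another 78 islands, 26.9% (21.9 to 32.4%), were found in 1 library, of which 48 were in replicate 1 and 30 in replicate 2, against 18.8% of all clusters. The remaining 80 islands, 27.6% (22.5 to 33.1%), were in neither list, against 20.1% of all clusters. By its label the series-wide list represents both libraries jointly, so its islands are no independent evidence beside theirs. Counted by bases, islands in both libraries made up 62.2% of the island length and those in neither 16.3%. In the other direction, 1 cluster of each library in the analysed stretch had no island over it. That of replicate 1 lay at 15427469 to 15428937 (score 0.71). It began at the base after the end of an island at 15424374 to 15427468 that was found in both libraries. That of replicate 2 lay at 976096 to 977565 (score 1.18).

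The islands found in both libraries were the longer ones. Their median length was 2407 bp, against 1806.5 bp for islands in 1 library and 1350 bp for islands in neither. None of the 62 islands shorter than 1500 bp was found in both (0 of 62, exact 95% upper bound 5.78%). Of the 182 islands from 1500 bp up to 3000 bp, 90 were in both libraries, or 49.5% (42.0 to 56.9%). Of the 28 from 3000 bp up to 5000 bp, 24 were in both and 4 in 1 library, and all 18 of at least 5000 bp were in both. The lists differ in their shortest clusters, with 1001 bp in the series-wide list and 1301 bp in each library list. Of the 80 islands in neither library 31 were shorter than 1301 bp, as were 5 of those in 1 library and 0 of those in both.

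The authors gave each cluster a score without stating its scale. In all 3 lists every score was, within a relative tolerance of 1e-11, the log2 of a ratio of whole numbers times 1 factor for the list, so a difference of 1 stands for a doubling of that ratio. The factor was 2.78 in the series-wide list, 2.52 in replicate 1 and 3.05 in replicate 2. What the whole numbers count is not stated in the sources used here. The median island score was 0.65 in the series-wide list, with quartiles of 0.51 and 0.93. Islands in both libraries had a median of 0.91, those in 1 library 0.52 and those in neither 0.56. With the islands in 4 classes of rising score, 8 of 73, 16 of 72, 44 of 72 and 64 of 73 were found in both libraries. Longer islands had higher scores, with Spearman's rho of 0.68 over the 290 islands and 0.82 over the 132 in both libraries. The relation came from the longer islands: rho was 0.65 over the 127 of at least 2000 bp and -0.16 over the 163 shorter ones, a split chosen after the values were seen. Of those 127 islands 109 were found in both libraries (85.8%), and of the 163 shorter ones 23 (14.1%). All points lie on 1 arm and share the same libraries, and length and score come from the same calls.

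**Figure D1:**
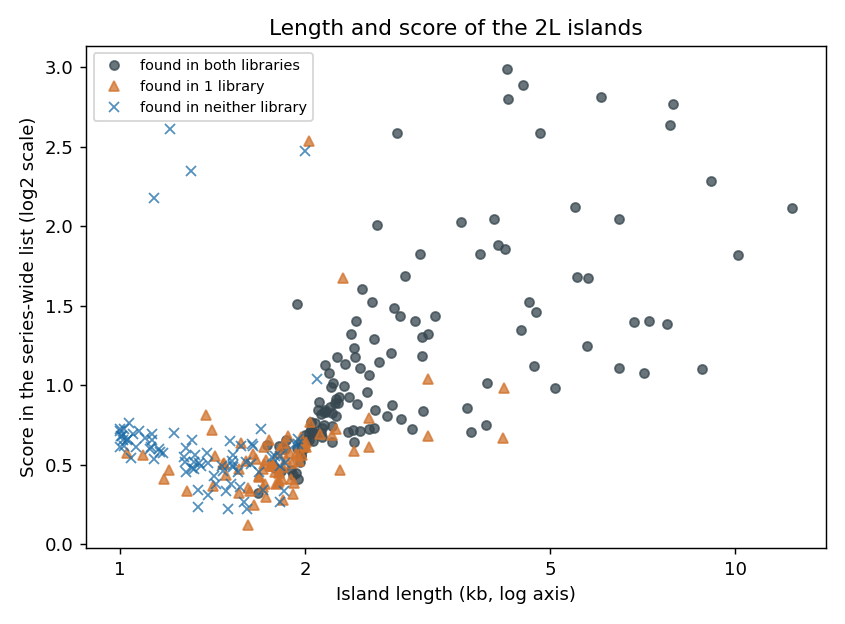
Length (kb, log axis) and series-wide score (log2 scale) of each of the 290 islands, marked by whether it was found in both libraries, in 1 or in neither. Islands of at least 5000 bp were all found in both libraries, and the short islands in neither library include 4 with scores above 2.

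Islands of many kilobases were few and recurred in both libraries. The first by length lay at 11316654 to 11329013, near the middle of the arm, and was 12360 bp long. Its score was 2.12 in the series-wide list, 2.07 in replicate 1 and 2.25 in replicate 2, and replicate 1 covered 84.6% of it and replicate 2 94.3%. The next was 10087 bp long, at 5164142 to 5174228, with a score of 1.82 series-wide, 1.89 in replicate 1 and 1.84 in replicate 2. These were the only 2 islands of at least 10 kb in the series-wide list. The third, at 9995043 to 10004191, was 9149 bp long and scored 2.29, 2.22 in replicate 1 and 2.38 in replicate 2. It stood 15.3 kb from another long island, at 9973680 to 9979733 (6054 bp), whose scores were higher, at 2.81 series-wide, 2.77 in replicate 1 and 2.93 in replicate 2.

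The 15 longest islands, from 5752 to 12360 bp, were 5.17% of the islands and held 16.9% of the island bases. All 15 were found in both libraries. They were not uniform in score, which ran from 1.08 to 2.81. An island of 8830 bp at 14075598 to 14084427 scored 1.11, with 1.28 in replicate 1 and 1.15 in replicate 2, and replicate 2 gave it as 2 clusters. That was the only island split into several clusters in a library. At the other end, an island of 7908 bp at 11540482 to 11548389 scored 2.77, with 2.84 in replicate 1 and 2.72 in replicate 2, and one of 7824 bp at 3251631 to 3259454 scored 2.64, with 2.61 and 2.66 in replicates 1 and 2. The libraries also differed in how far long islands reached. At 14027825 to 14035060 (7236 bp) replicate 1 covered 53.9% of the island and replicate 2 98.7%, and at 19381551 to 19388648 (7098 bp) the shares were 56.6% and 96.0%. At 936688 to 943156 (6469 bp) replicate 1 covered the larger share, 87.8% against 64.5% in replicate 2. At 3004446 to 3012198 (7753 bp) neither library covered more than 69.8%.

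The remaining islands among the 15 longest lay at 11726499 to 11733352 (score 1.40), 1296671 to 1303148 (2.04), 12264485 to 12270259 (1.67) and 11878352 to 11884103 (1.25). Of the 15, 4 thus lay in the single Mb between 11100001 and 12100000.

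The islands with the highest scores were mostly among the longer ones, while the first island by length ranked 16 by score. The highest score, 2.99, belonged to a 4253 bp island at 16513708 to 16517960, with 2.97 in replicate 1 and 3.00 in replicate 2. It was followed by a 4517 bp island at 12559501 to 12564017, with 2.89 series-wide, 2.70 in replicate 1 and 3.07 in replicate 2. Of the 10 with the highest scores 3 were also among the 15 longest, and 8 were found in both libraries. Among those 8 were also 6992597 to 6996868 (score 2.80), 4937065 to 4941881 (2.59) and 15826581 to 15829400 (2.58). The other two did not recur across libraries. An island of 1205 bp at 10593965 to 10595169 scored 2.61 and was in neither library, and one of 2027 bp at 4667123 to 4669149 scored 2.54 series-wide and 3.45 in replicate 1 and was not in the replicate 2 list. The lowest score of any island was 0.12.

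No island found in neither library exceeded 2092 bp. The 5 longest of them were at 17912006 to 17914097 (2092 bp, score 1.04), 10946968 to 10948966 (1999 bp, 2.47), 14013333 to 14015282 (1950 bp, 0.66), 495399 to 497345 (1947 bp, 0.63) and 16448378 to 16450302 (1925 bp, 0.63).

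Where both libraries had an island, they drew its borders close together. Over 131 islands that matched 1 cluster in each library one to one, the starts differed by 138 bp at the median and the ends by 101 bp. Both borders lay within 500 bp of each other in 108 of the 131, while the largest differences were 2159 bp at a start and 2458 bp at an end. Matched clusters had a median length of 2172 bp in replicate 1 and of 2089 bp in replicate 2, while the same islands measured 2402 bp in the series-wide list. Scores were ranked alike, with rho = 0.845 over these 131 islands, and lengths with rho = 0.872. The score was higher in replicate 1 in 71 of the 131. Base by base, 343.9 kb of the analysed stretch were covered in both libraries and 547.0 kb in at least 1, a Jaccard index of 0.629. The stretches covered in both numbered 133, with a median of 2024 bp and a longest of 10220 bp.

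**Figure D2:**
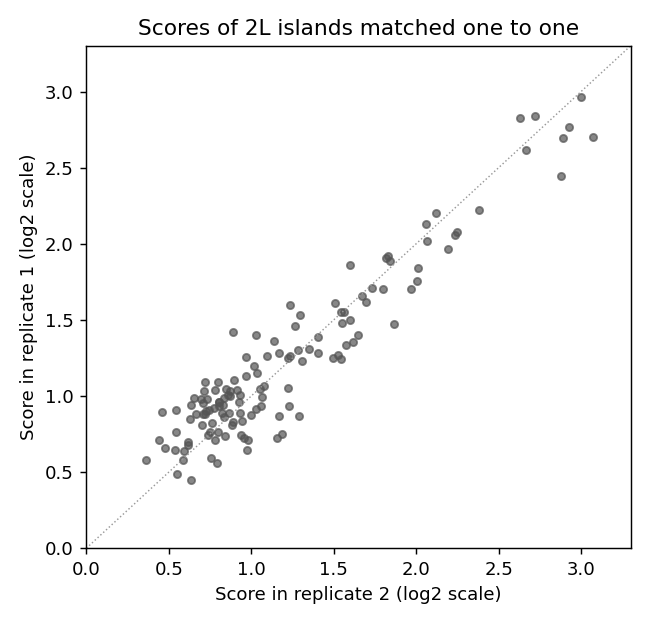
Score of 131 islands matched one to one in replicate 1 (vertical axis) and replicate 2 (horizontal axis), both on the log2 scale, with the dotted line marking equal scores. Points lie on both sides of the line, with 71 of 131 higher in replicate 1.

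The islands were unevenly spaced. The uncovered distance between neighbouring islands was 33.4 kb at the median and 66.3 kb on average, so the mean was 1.98 times the median, and the quartiles were 8.12 and 84.7 kb. Of the 289 gaps, 81 (28.0%) were at most 10 kb long, 149 (51.6%) were between 10 and 100 kb, 37 (12.8%) were from 100 kb up to 200 kb and 22 (7.61%) were at least 200 kb long. The shortest gap was 27 bp and the longest 734.4 kb. In the library lists the median gap was wider, at 62.7 kb in replicate 1 and 68.4 kb in replicate 2, and the mean was 1.69 and 1.72 times the median. Over the 132 islands found in both libraries the median gap was 88.0 kb and the mean 143.4 kb. In 199 windows of 100 kb, 67 (33.7%) held no island and 60 held 1. At the other extreme, 22 windows (11.1%) held 4 or more, up to 7, and together 104 of the 290 islands. The variance of the counts per 100 kb window was 1.68 times their mean of 1.46.

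**Figure D3:**
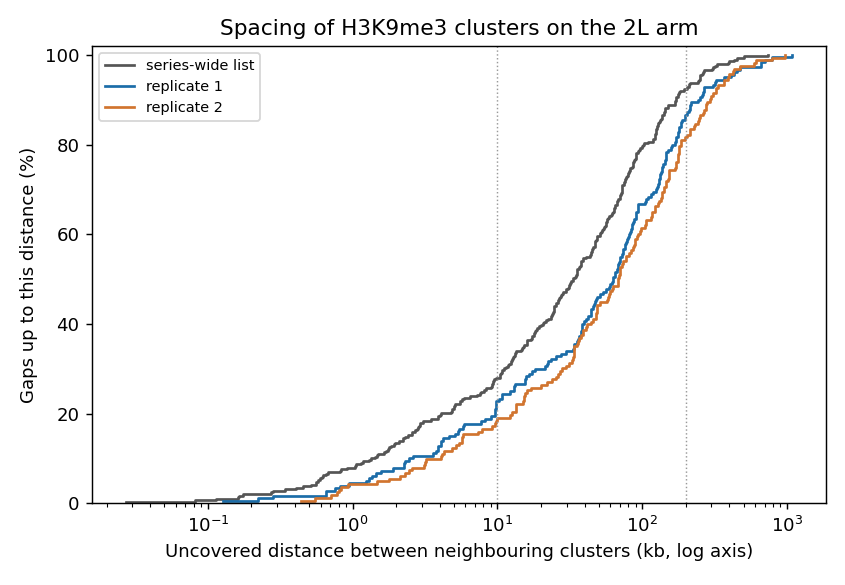
Share of gaps (%) up to a given uncovered distance (kb, log axis) between neighbouring clusters in the series-wide list, replicate 1 and replicate 2, with dotted lines at 10 and 200 kb. The series-wide curve lies left of both libraries, with medians of 33.4 kb series-wide, 62.7 kb in replicate 1 and 68.4 kb in replicate 2.

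Close neighbours formed small local groups. With a group taken as 3 or more islands chained by gaps of at most 10 kb, 17 groups held 61 islands, or 21.0%. Of these groups 11 had 3 islands, 4 had 4, 1 had 5 and 1 had 7. The grouping depends on where the calls cut the signal, as 23 of the 289 gaps were at most 1 kb long. With islands joined across such gaps, 13.9% were in groups. In the library lists the same rule gave 7 groups with 24 of 181 clusters in replicate 1 (13.3%) and 5 groups with 15 of 164 in replicate 2 (9.15%). The islands found in both libraries gave 2 groups with 6 of 132 islands (4.55%). Of the islands in groups 26 of 61 were found in both libraries, or 42.6% (exact 95% interval 30.0 to 55.9%), against 106 of 229 outside groups, or 46.3% (39.7 to 53.0%). Their median length was 1975 bp, against 1942 bp outside, and their median score 0.67, against 0.65.

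The group with the most islands, 7, spanned 22.2 kb at 9580098 to 9602329, with gaps from 274 to 2901 bp. All of its islands were short, from 1384 to 3165 bp, and of low score, from 0.51 to 0.71. Replicate 1 covered 39.4% of the span with 5 clusters and replicate 2 12.6% with 2. The group of 5 islands, 23.5 kb at 5160388 to 5183844, surrounded the 10087 bp island and was filled by islands to 85.9%. Its gaps ran from 81 to 2226 bp. Replicate 1 covered 62.9% of it and replicate 2 53.2%. Of its 5 islands 2 were in both libraries, 1 in 1 library and 2 in neither.

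The 4 groups of 4 islands lay at 4302473 to 4323364, 12263074 to 12282324, 5352792 to 5371760 and 16469197 to 16487321. They spanned 20.9, 19.3, 19.0 and 18.1 kb. In that at 12263074 the gaps ran from 27 to 8352 bp. That at 4302473 had 3 islands in both libraries and 1 in 1 library, while that at 16469197 had 1 in both, 1 in 1 library and 2 in neither. Of the groups of 3, the widest was at 9973680 to 10004191 (30.5 kb) and held the pair of long islands named above. Replicate 1 covered 48.2% of it and replicate 2 48.3%. The next, at 11307173 to 11329013 (21.8 kb), held the first island by length and was filled by islands to 85.2%. Replicate 1 covered 75.7% of it with 3 clusters and replicate 2 53.4% with 1. All 3 islands were found in both libraries in 1 of the 17 groups, at 10226279 to 10240011, where replicate 1 covered 65.2% and replicate 2 64.3%.

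Long empty stretches lay between some neighbouring islands. Gaps of at least 200 kb added up to 7.05 Mb, or 35.4% of the analysed stretch. Of these 22 stretches 10 lay on the telomeric side of the midpoint and 12 on the centromeric side. No library cluster lay wholly inside any of them. That was nearly fixed in advance, as all but 1 cluster of each library in the analysed stretch overlapped an island. The edge of a library cluster reached into an empty stretch by at most 229 bp, in 7 stretches for replicate 1 and 5 for replicate 2. The longest, 734.4 kb at 13278973 to 14013332, was untouched in both libraries. A stretch of 122 kb that held islands separated it from another, 428.0 kb at 12729124 to 13157084. The others among the 8 longest were at 14530534 to 15038120 (507.6 kb), 5679931 to 6132724 (452.8 kb), 17360283 to 17759330 (399.0 kb), 2182923 to 2576218 (393.3 kb), 1584394 to 1912959 (328.6 kb) and 15829401 to 16149478 (320.1 kb).

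In the library lists empty stretches of this kind took up 48.1% of the analysed stretch in replicate 1 and 54.5% in replicate 2. The longest differed from that of the series-wide list. It ran from 17360353 to 18444023 (1083.7 kb) in replicate 1 and from 17360211 to 18320146 (959.9 kb) in replicate 2. The series-wide list has 6 islands inside the first, 9.99 kb in all, and 5 inside the second, 8.08 kb in all. The second longest was nearly the same in both libraries, at 13245795 to 14028774 (783.0 kb) in replicate 1 and 13245588 to 14027916 (782.3 kb) in replicate 2, and contained 2 series-wide islands.

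Solitary islands were few. Both neighbours were at least 100 kb away for 15 of the 290 islands, of which 8 were found in both libraries, 1 in replicate 2 alone and 6 in neither. Their median length was 1987 bp and their median score 0.65, close to the medians of all islands. The exception in length was the 6478 bp island at 1296671 to 1303148, 176.3 kb from its neighbour on the telomeric side and 143.1 kb from that on the centromeric side. The island at 1912960 to 1915371 (2412 bp, score 1.18) stood between gaps of 328.6 and 245.6 kb. It was found in both libraries, with scores of 1.40 in replicate 1 and 1.03 in replicate 2.

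**Figure D4:**
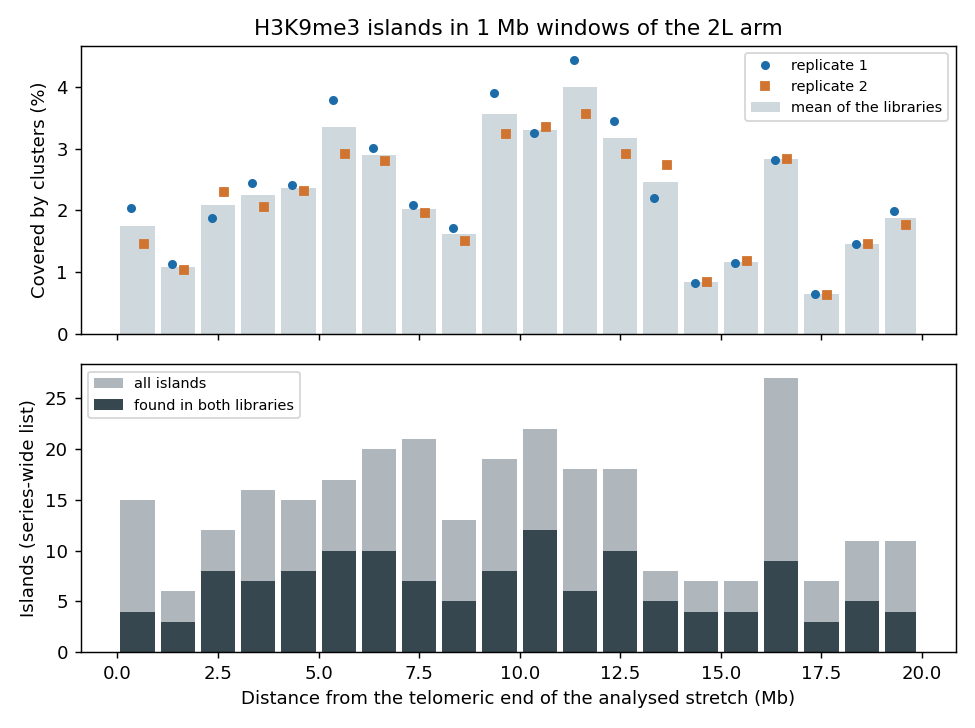
Top, share of each 1 Mb window covered by clusters (%) in replicate 1, replicate 2 and their mean (bars). Bottom, number of islands per window, with those found in both libraries in dark; the horizontal axis is the distance (Mb) from the telomeric end of the analysed stretch. Coverage is highest in windows near the middle, at 4.00% on average between 11 and 12 Mb, and lowest between 17 and 18 Mb, at 0.64%.

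Along the arm the islands did not thin out steadily in either direction. In 20 windows of 1 Mb, the last one shorter, the number of islands ran from 6 to 27. The mean covered share was highest at 4.00% ± 0.618 (SD, n = 2) in 11100001 to 12100000, followed by 3.57% ± 0.465 in 9100001 to 10100000 and 3.35% ± 0.624 in 5100001 to 6100000. It was lowest at 0.637% ± 0.00099 in 17100001 to 18100000, then 0.833% ± 0.0169 in 14100001 to 15100000 and 1.09% ± 0.0686 in 1100001 to 2100000. The gap between the 3 lowest and the 3 highest windows exceeded the SD between libraries, whereas the 3 highest overlapped in their SD. These windows were picked as the extremes of the 20 by the same library means, so that gap was nearly fixed in advance. The same 5 windows were the most covered in both libraries, and the same 5 the least. Over the 20 windows the covered shares of replicate 1 and replicate 2 were ranked with rho = 0.958, a description over windows of the same arm. Covered share and distance from the telomeric end had rho = -0.19 in replicate 1 and -0.12 in replicate 2. Split at its midpoint, the analysed stretch was covered in replicate 1 to 2.21% on the centromeric side and 2.45% on the telomeric side, and in replicate 2 to 2.12% and 2.16%. The telomeric side was higher in both libraries, by an amount that differed between them.

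Number and coverage did not always go together. The window 16100001 to 17100000 held most islands, 27, but ranked seventh in coverage at 2.83% ± 0.0165, and 9 of its islands were found in both libraries. The window 13100001 to 14100000 held 8 islands, 3 of them at least 5 kb long, and was covered to 2.46% ± 0.375 (SD, n = 2 each).

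The ends of the analysed stretch were set by the rule. The islands nearest to them were at 106546 to 108272 (score 0.30, found in replicate 2) and at 19936973 to 19938789 (score 0.40, found in replicate 1). The nearest clusters left out were at 20860 to 23440 (score 1.20, in both libraries) at the telomeric end and at 20081681 to 20083488 (score 0.47, in replicate 1) at the centromeric end. The rule left out 3 clusters at the telomeric end and 129 in the last 3 Mb, so no gradual border with the centromeric region enters the values above.

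The same margins were applied to 3L, X and 3R to see where the 2L islands differed. The covered share of 2L was 2.24% ± 0.133. It was 2.35% ± 0.0891 for 3L, 6.16% ± 0.281 for X and 1.50% ± 0.0871 for 3R (SD, n = 2 each). Within a library, 2L minus 3L was -0.084 percentage points in replicate 1 and -0.146 in replicate 2. It averaged -0.115 ± 0.0440 points (SD, n = 2), so 2L was slightly below 3L in both libraries. 2L minus X was -4.02 and -3.81 points, and 2L minus 3R was 0.768 and 0.703 points, in replicates 1 and 2. Their SDs between the libraries were 0.148 and 0.0460 points, and all 3 mean differences exceeded their SD. Each arm is a single item and no test across arms was made.

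The difference lay in the number and spacing of islands more than in their length. The library lists gave 8.66 ± 0.604 clusters per Mb for 2L, against 9.47 ± 0.264 for 3L, 24.1 ± 1.02 for X and 5.85 ± 0.513 for 3R. Median lengths were 2021.5 bp ± 30.4 for 2L, 2014.5 bp ± 29.0 for 3L, 2091.25 bp ± 23.7 for X and 1992.25 bp ± 32.2 for 3R. The median gap was 65.6 kb ± 3.99 for 2L, 59.7 kb ± 0.336 for 3L, 23.0 kb ± 1.78 for X and 89.3 kb ± 3.24 for 3R (SD, n = 2 each). Empty stretches of at least 200 kb took up 51.3% ± 4.55 of 2L, 47.4% ± 4.07 of 3L, 7.88% ± 0.168 of X and 71.4% ± 5.01 of 3R. Clusters in local groups were 11.2% ± 2.91 of those of 2L, 6.92% ± 1.59 of those of 3L, 19.0% ± 0.256 of those of X and 4.65% ± 3.82 of those of 3R. For this share 2L, at 13.3% in replicate 1 and 9.15% in replicate 2, lay above 3L, at 5.80% and 8.04%, by an amount that differed widely between the libraries. In the series-wide list the share of islands found in both libraries was 45.5% for 2L (exact 95% interval 39.7 to 51.4%), 46.2% for 3L (40.7 to 51.7%), 52.5% for X (48.7 to 56.3%) and 44.0% for 3R (37.7 to 50.4%). These intervals overlap between 2L and each of the other arms. They cover counting error only and treat islands as independent, so their overlap does not show that the arms are alike.

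**Figure D5:**
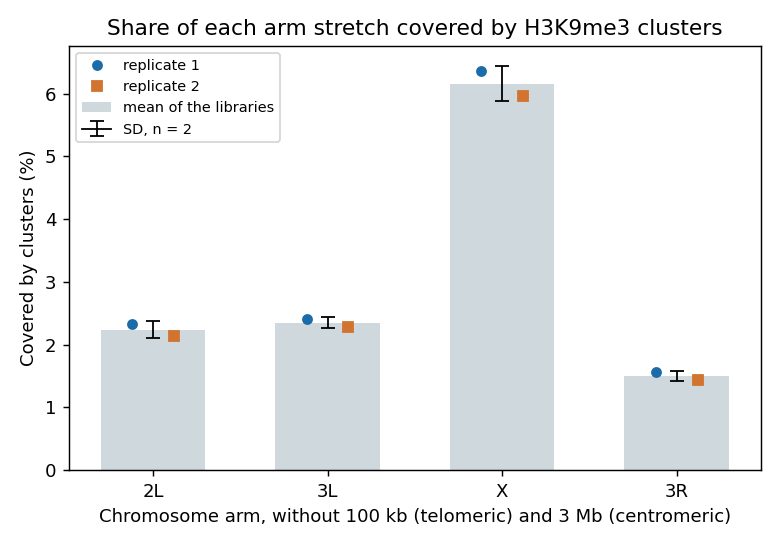
Share (%) of the analysed stretch of 2L, 3L, X and 3R covered by clusters in replicate 1, replicate 2 and on average (bars, with SD, n = 2). 2L, at 2.24%, lies next to 3L, below X and above 3R.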

How the data were processed

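The submitters' processing notes name Bowtie 0.12.7. Positions refer to FlyBase release 5, per the file headers. The deposited lists give the borders and a score of each significantly enriched cluster, in 1 list per ChIP library and 1 for the series. How clusters were called and replicates combined is not given in the sources used here. The number of reads per library is unknown.

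The software was Python 3.11.15, numpy 2.4.6 and scipy 1.17.1, and the interval functions were tested on simulated data. Lengths count both end bases, covered shares count each base once, and clusters were assigned by midpoint. On 3R the centromeric end is the low end of the coordinates. Shares have exact Clopper-Pearson intervals (95%, counting error only). With 1 condition no significance test was made. In a search up to denominators of 200000 all scores of each list were ratios of whole numbers times a factor; its power of 2 was set so that numerators and denominators in lowest terms were even about equally often (33.7% and 33.5% series-wide).

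Named were the 15 longest islands, the 10 of highest score, the 5 longest in neither library, the 8 largest groups, the 8 longest empty stretches and the 3 most and 3 least covered windows; other positions given were chosen after their values were seen. The rule for the islands, the lists and the limits were chosen with earlier results of these data known. Alternatives were a score limit at the median, joining within 1 kb, a margin of 4 Mb, overlap of 50% of the island, other limits for gaps, single lists and, added after the data were seen, islands in both libraries only. A gene table of release 6 was not used, since its coordinates belong to another build.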

Additional observations from a re-analysis of the deposited data

How the results depend on the processing

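Only the differences between arms and the rank correlation of scores could change sign, and none did. Densities, lengths, gaps and shares cannot be negative, so for them no change of direction was possible. Of the 57 alternatives 22 stayed within the spread of the main value (1 SD of the libraries, the 95% interval of a share, or 1.5 times a count) and 35 moved. None of these spreads is defined for the rank correlation of scores, and its small change from 0.845 to 0.836 was counted as moved. The 22 include those that left out a library. With 2 libraries each value lies within 1 SD of their mean, so these could not move and show no stability. No paired analysis was possible because the shared replicate numbers join each ChIP library to its input, and no cluster list of an input library was used; differences between arms were taken within each library. A score limit at the median of each list, which removes clusters by construction, gave 7.28 islands per Mb, a median length of 2393 bp, a median gap of 77.5 kb, 11.0% of islands in groups, 58.4% of the stretch in empty stretches, 74.5% of islands in both libraries and a covered share of 1.48%. It brought 2L minus 3L to -0.033 points, 2L minus X to -2.49 and 2L minus 3R to 0.479, and rho of the scores to 0.836 over 107 islands. The series-wide list gave a covered share of 3.44%, with differences of -5.42 points from X and 1.09 from 3R. Replicate 1 alone gave 9.09 clusters per Mb, a median length of 2043 bp, a median gap of 62.7 kb, 13.3% in groups and 48.1% in empty stretches; replicate 2 alone gave 8.24, 2000 bp, 68.4 kb, 9.15% and 54.5%. Islands in both libraries only gave 6.63 per Mb, 2407 bp, 88.0 kb, 4.55% and 57.6%. Joining within 1 kb gave a median gap of 38.3 kb and 13.9% of islands in groups. Group gaps of at most 5 and 20 kb gave 14.5% and 36.6%, and empty stretches of at least 100 and 300 kb took up 61.7% and 21.0%; these directions follow from the limits. Leaving out a library gave covered shares of 2.14 to 2.33%, and differences of -0.146 to -0.084 points from 3L, -4.02 to -3.81 from X and 0.703 to 0.768 from 3R. For the remaining shifts the cause was not tested.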

Other observations

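Since each score is the log2 of a ratio of whole numbers times a factor, the ratio can be written in lowest terms. These terms are the smallest whole numbers that give the score, and any multiple of them gives the same score, so they are no read counts. Over the 132 islands found in both libraries the median numerator was 183.5 and the median denominator 293.5. Over the 78 in 1 library they were 94 and 184, and over the 80 in neither 72.5 and 132. Denominators of at most 10 occurred in 2 of the 132, 3 of the 78 and 5 of the 80.

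Among the islands in neither library that scored above 2, the ratio was 11 to 5 for the 1205 bp island at 10593965 to 10595169 (score 2.61), 2 to 1 at 10946968 to 10948966 (2.47), 11 to 6 at 7959114 to 7960417 (2.35) and 13 to 8 at 5174569 to 5175705 (2.17). The 4253 bp island with the highest score, at 16513708 to 16517960, had 975 to 341 and was found in both libraries, and the island in replicate 1 alone at 4667123 to 4669149 had 23 to 11. Scores were shared exactly by several clusters for 70 of the 290 islands, a share close to the 907 of all 3941 clusters of the series-wide list. The part of small whole numbers in these scores was not tested.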
